A study of Mus musculus with 8 samples.

Results

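The core circadian clock genes were examined in mouse thyroids after exposure to 99mTcO4-. The set comprises 10 genes, Arntl, Clock, Npas2, Per1, Per2, Per3, Cry1, Cry2, Nr1d1 and Dbp, of the 34797 gene names on the array. Every spot for a mouse transcript that carries one of these names was used, and together the genes were read by 13 probes. The gene names and probe positions (genome build mm9) are those of the array files. The animals were female Balb/c mice, 8 weeks of age, kept on a diet of normal iodide content. The exposed group (Tc) received 99mTcO4- by intraperitoneal injection, a radioactive anion that thyrocytes take up as they do iodide, with an absorbed dose of 30 Gy to the thyroid, and RNA was prepared 24 hours after administration. The control group (Ct) received no 99mTcO4-. It is described as untreated in one place of the study and as given saline in another. Mice given 99mTcO4- were imaged under isoflurane, and the sources used here do not say whether controls were anaesthetised. Each group held 4 mice, with 1 thyroid and 1 one-colour array each. The control mice bear the numbers 1 to 4, and the exposed ones the names S539, S588, S589 and S590. The clock hour at which tissue was taken and the light cycle are not given in the sources used here. Whether both groups were taken at the same hour is thus not known. For clock genes, an effect of the hour cannot be told apart from one of the exposure.

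The circadian clock is a feedback loop of transcription that runs in nearly every cell of the body with a period of about a day. BMAL1 (gene Arntl) pairs with CLOCK or NPAS2 and activates genes that hold an E-box in their promoters, among them the Per and Cry genes, whose proteins accumulate and then repress the pair. In a linked loop, REV-ERB alpha (Nr1d1) represses Arntl through an element called RORE, and DBP activates genes through the D-box. Transcripts of Arntl and those of the Per genes and Dbp normally peak at opposite phases of the day, and Per1 and Per2 can also be induced directly by glucocorticoids and by cAMP signals.

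Per1 and Per2 rose in exposed thyroids, Per1 to 4.42 times and Per2 to 4.69 times the control signal, and on both probes every exposed array lay above every control. The groups were thus apart on 2 of the 13 probes, against 4.74% of all probes that were apart in this direction, 4.37% in the other and 9.11% in all. The same 2 probes were the ones called, both higher, against 0.781% of all 55681 probes called in either direction by limma (adjusted p under 0.05, Benjamini-Hochberg) and 0.587% called higher. No probe of the other 8 genes passed the threshold. By their leading probes, that is the RefSeq mRNA probe of highest mean signal, 6 of the 10 genes had higher and 4 had lower mean signal in exposed thyroids. A higher mean was found for 50.8% of all probes and for 46.1% of the leading probes of 19965 genes. The 4 lower were Arntl, Clock and Npas2, which encode the activators, and Nr1d1. At an unadjusted p under 0.05 there were 4 of the 10 genes (Per1, Per2, Per3 and Arntl), against 12.2% of all probes and 14.9% of the leading probes of 19965 genes. The median log2 fold change of the 10 genes was 0.40, against 0.0077 over all probes and −0.0323 over the leading probes of all genes. Whole thyroids were measured, so fewer cells of a type and less RNA per cell cannot be told apart.

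**Figure D1:**
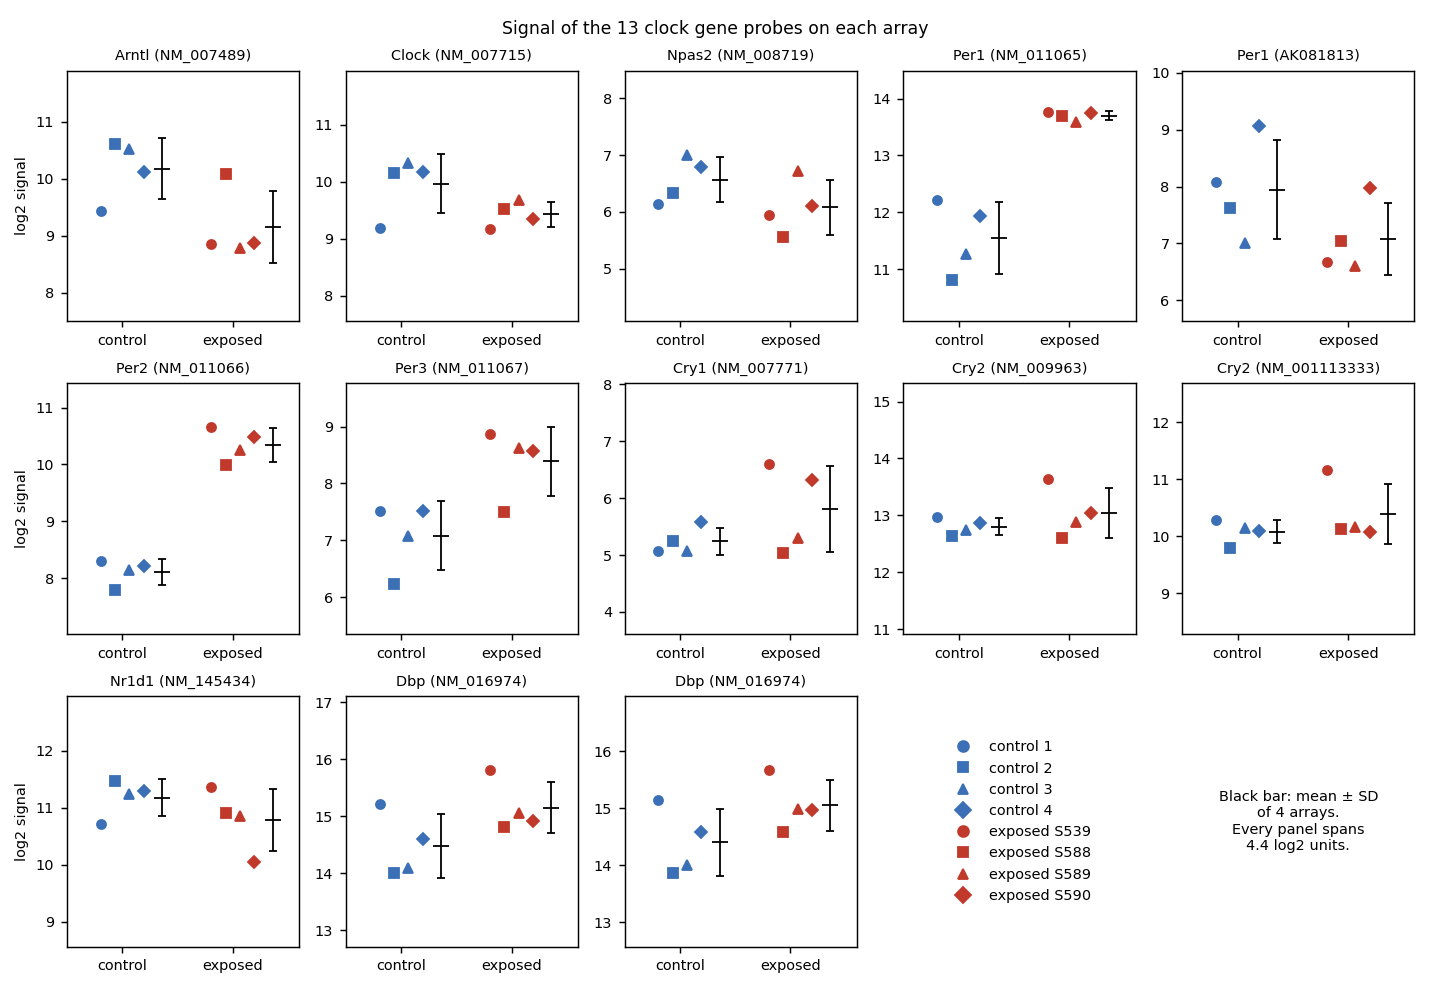
Log2 signal (vertical axis, background-subtracted and quantile-normalized) of each of the 13 probes on the 4 control (blue) and 4 exposed (red) arrays, with the mean ± SD of each group in black and each array given its own marker. Per1 (NM_011065) and Per2 are the probes on which all exposed points lie above all control points, while the Per1 probe designed on AK081813 lies in the other direction.

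Promoter sequences are shown for the genes whose pattern the results turn on and whose windows hold a motif of the loop. They are the 250 bases before a transcription start, from RefSeq on assembly GRCm38.p6, written 5′ to 3′ on the gene's strand. Windows of 250 bases before to 50 bases after a start were at hand for 9 of the 10 genes (13 windows, none for Per2). Both strands were searched for the E-box CACGTG, the D-box TTATGNAA, the CRE half-site TGACGT that cAMP signals act through, and the RORE. Capitals mark the matches.
Per1, first start, chr11:69098699-69098948, plus strand, with an E-box and a D-box: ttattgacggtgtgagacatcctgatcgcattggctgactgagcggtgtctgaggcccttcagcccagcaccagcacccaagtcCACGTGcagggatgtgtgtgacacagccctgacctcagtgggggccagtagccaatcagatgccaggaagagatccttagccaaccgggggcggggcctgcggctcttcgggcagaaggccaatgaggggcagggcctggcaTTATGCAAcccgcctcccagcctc
Per1, second start, chr11:69099902-69100151, plus strand, with a CRE half-site: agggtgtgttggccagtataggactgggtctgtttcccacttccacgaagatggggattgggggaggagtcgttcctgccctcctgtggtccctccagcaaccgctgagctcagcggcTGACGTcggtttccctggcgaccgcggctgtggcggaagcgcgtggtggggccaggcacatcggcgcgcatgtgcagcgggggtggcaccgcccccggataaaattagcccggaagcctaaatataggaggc
Per3, chr4:151044666-151044915, minus strand, with 2 D-boxes: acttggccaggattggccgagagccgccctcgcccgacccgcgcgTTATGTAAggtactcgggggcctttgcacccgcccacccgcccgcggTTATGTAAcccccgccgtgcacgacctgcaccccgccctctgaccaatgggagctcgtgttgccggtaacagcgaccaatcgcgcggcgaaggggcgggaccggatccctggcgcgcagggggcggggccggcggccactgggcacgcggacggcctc
Ciart, a clock repressor described below, chr3:95882229-95882478, minus strand, with 3 E-boxes: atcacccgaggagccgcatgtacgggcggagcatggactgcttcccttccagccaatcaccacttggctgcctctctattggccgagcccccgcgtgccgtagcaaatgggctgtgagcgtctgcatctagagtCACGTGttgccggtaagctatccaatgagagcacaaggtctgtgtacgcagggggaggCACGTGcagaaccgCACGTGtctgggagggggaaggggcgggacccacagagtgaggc
Arntl, second start, chr7:113207528-113207557, plus strand, 30 bases around a RORE that lies after the start: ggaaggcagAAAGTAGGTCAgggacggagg

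The first Per1 start had its E-box 166 bases and its D-box 24 bases upstream, and the second start had its CRE half-site 132 bases upstream. In Per3 the D-boxes lay 205 and 158 bases upstream. The E-boxes of Ciart lay 116, 58 and 44 bases upstream. Among the 9 genes with a window, an E-box was found for 2 (Per1, and Cry1 at 60 bases upstream), a D-box for 2 (Per1 and Per3), a CRE half-site for 1 (Per1) and a RORE for 1 (Arntl, 27 bases after the start). Counted by window, 2 of the 13 held the E-box, 2 the D-box, 1 the CRE half-site and 1 the RORE. Ciart belongs to a list of 26 other clock genes, of which 19 had a window (25 windows). There 5 windows, of 4 genes, held the E-box, 1 the D-box, 2 the CRE half-site and 0 the RORE. Of all 32851 promoter windows, 7.15% held the E-box, 3.38% the D-box, 7.51% the CRE half-site and 0.384% the RORE. These matches describe the letters of the windows and say nothing on binding in the thyroid.

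The activators come first in the loop. Arntl, whose protein BMAL1 is the shared partner of the activating pairs, was read by a probe at chr7:120457261-120457320. Its log2 signal was 9.43, 10.61, 10.52 and 10.13 in controls 1 to 4 and 8.86, 10.09, 8.78 and 8.88 in S539, S588, S589 and S590. Apart from S588, the exposed arrays lay below all controls, and S588 lay among them. The means were 10.17 ± 0.54 and 9.15 ± 0.63 (SD, n = 4 each), a log2 difference of −1.02 (SE 0.38, 95% confidence interval −1.89 to −0.15), or 2.03 times lower. This did not pass limma's threshold (adjusted p = 0.342), and the two-sided exact permutation p was 0.0571. Without S588 the groups were apart and the difference was −1.33, still with an adjusted p of 0.181 in limma.

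Clock, the DNA-binding partner of BMAL1, was read at chr5:76641377-76641436. Its log2 signal was 9.19, 10.16, 10.33 and 10.17 in the controls and 9.18, 9.52, 9.68 and 9.35 in the exposed thyroids. Controls 2 to 4 lay above every exposed array, and control 1 lay level with the lowest of them. This gave a log2 difference of −0.53 (SE 0.27, interval −1.16 to 0.09, limma adjusted p = 0.470, exact permutation p = 0.114).

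Npas2, which can stand in for CLOCK, gave 6.15, 6.33, 7.01 and 6.79 in the controls and 5.94, 5.56, 6.72 and 6.10 in the exposed thyroids (probe at chr1:39418941-39419000). The groups overlapped, with S589 in the upper part of the control range. Their means differed by −0.49 on the log2 scale (SE 0.29, interval −1.17 to 0.19, limma adjusted p = 0.534). It was −0.20 when each array was scaled to its 75th percentile, a scaling that moves the median of all probes from 0.0077 to 0.165. In the deposited values it was −0.52 with the groups apart (adjusted p = 0.129).

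The period proteins are the repressors whose accumulation closes the loop. For Per1, the leading probe (chr11:68923364-68923423) gave a log2 signal of 12.21, 10.81, 11.26 and 11.93 in controls 1 to 4 and of 13.77, 13.69, 13.58 and 13.75 in the exposed thyroids. The exposed arrays were nearly level with each other, and the lowest of them lay 1.37 above the highest control. The means were 11.55 ± 0.63 and 13.70 ± 0.08 (SD, n = 4 each), so the log2 difference was 2.15 (SE 0.30, interval 1.45 to 2.84, limma adjusted p = 0.0258). The exact permutation p was 0.0286, the smallest that 4 against 4 arrays allow. The SD over controls was larger than that of 95.5% of probes of like signal, and the SD over exposed arrays larger than that of 13.4%. With any single array other than control 1 left out, the adjusted p of Per1 was 0.0518 to 0.0923, and the log2 difference stayed between 1.90 and 2.36 over all 8 omissions.

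The other probe named Per1 was designed on the cDNA clone AK081813 and lies at chr11:68919895-68919954, upstream of the leading probe on the same strand. It gave 8.08, 7.63, 7.02 and 9.06 in the controls and 6.68, 7.04, 6.61 and 7.98 in the exposed thyroids. Here the exposed arrays were on average lower, with overlap, and the log2 difference was −0.87 (SE 0.48, interval −1.98 to 0.24, limma adjusted p = 0.502). Within each array the log2 signal of the leading probe minus that of this probe was larger in every exposed than in every control thyroid, by 3.02 on average (exact permutation p = 0.0286, adjusted p = 0.0476 over 5 such probe pairs). The pair was chosen after the values had been seen, so these p-values describe the separation and are no independent test of it. Which transcript the clone probe binds was not determined here.

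Per2 gave 8.31, 7.78, 8.15 and 8.21 in the controls and 10.66, 9.98, 10.25 and 10.48 in the exposed thyroids (probe at chr1:93313046-93313105). The lowest exposed array, S588, lay 1.67 above the highest control. The means were 8.11 ± 0.23 and 10.34 ± 0.29 (SD, n = 4 each), a log2 difference of 2.23 (SE 0.20, interval 1.78 to 2.68, limma adjusted p = 0.00451, exact permutation p = 0.0286). The SD exceeded that of 34.7% of probes of like signal in the controls and of 64.1% in the exposed thyroids. By unadjusted p it was number 46 of the 55681 probes, where the leading Per1 probe was number 232. Per2 passed the threshold under all 17 alternatives of processing and sample choice that were run, with a log2 difference between 1.95 and 2.37.

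Per3, the paralog that is least needed for the rhythm, gave 7.51, 6.24, 7.07 and 7.51 in the controls and 8.88, 7.50, 8.62 and 8.57 in the exposed thyroids (probe at chr4:150379256-150379315). Of the exposed arrays S539, S589 and S590 lay above every control, and S588 lay 0.0115 below the highest one. The means were 7.08 ± 0.60 and 8.39 ± 0.61 (SD, n = 4 each). The log2 difference of 1.31 (SE 0.39, interval 0.41 to 2.21) did not pass limma's threshold (adjusted p = 0.236, exact permutation p = 0.0857). Without S588 it was 1.61 with the groups apart, and the adjusted p was 0.153.

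The log2 differences of the Per genes were compared within arrays, for pairs chosen after the values had been seen. That of Per1 exceeded that of Per3 by 0.84, and that of Per2 exceeded that of Per3 by 0.92. In both pairs the within-array values of the exposed thyroids all lay above those of the controls (exact permutation p = 0.0286, adjusted p = 0.0476 over the 5 pairs). The adjusted value depends on which pairs were chosen. As with the clone probe, these p-values describe the separation and are no independent test of it. Per1 and Per2 differed in their change by −0.09, which was not beyond the spread (exact permutation p = 0.8).

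**Figure D2:**
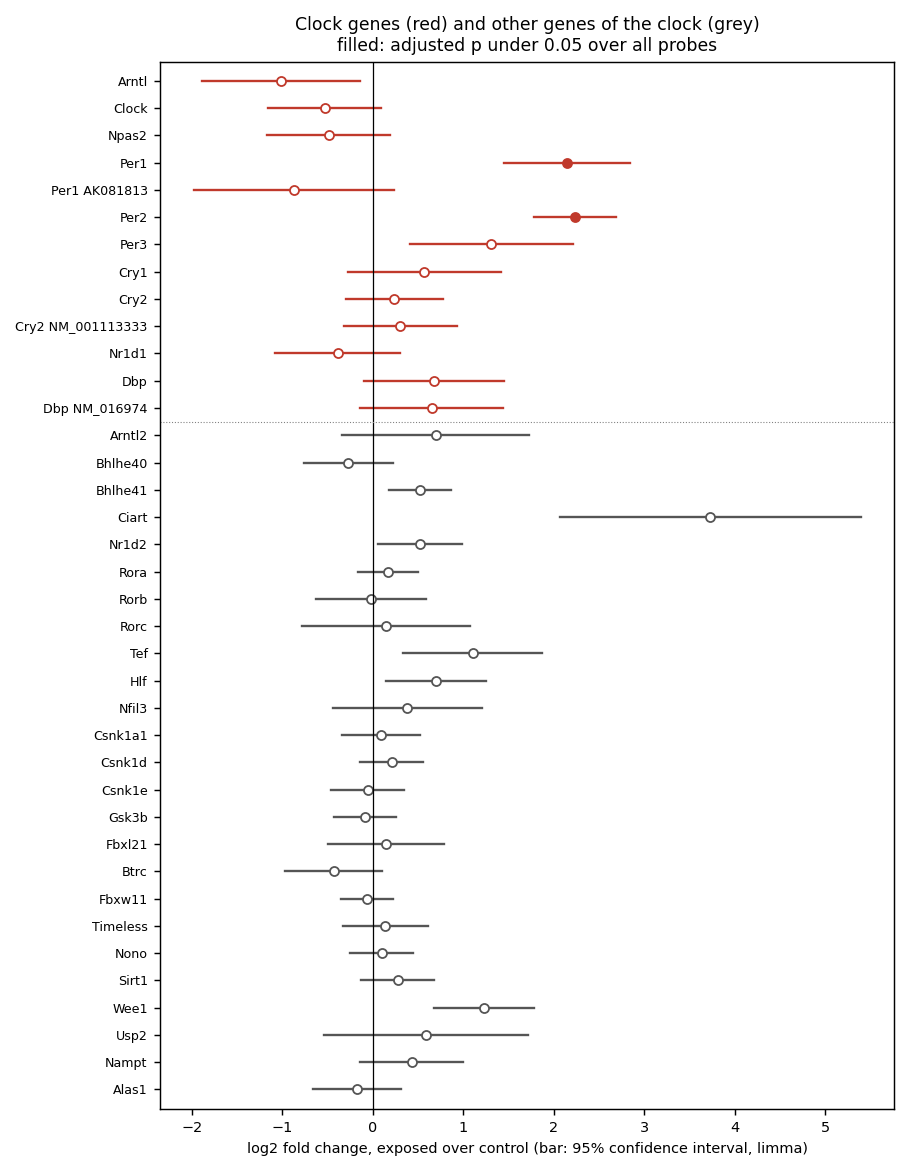
Log2 fold change, exposed over control, with its 95% confidence interval from limma (horizontal axis) for the 13 clock gene probes (red) and the leading probes of other genes of the clock (grey), filled where the adjusted p over all probes was under 0.05. Only Per1 (2.15) and Per2 (2.23) are filled, the interval of Arntl lies below 0, and the widest interval belongs to Ciart (2.06 to 5.40). The fitted value of Arntl2 rests on control signals not well above background.

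The cryptochromes, which bind the PER proteins and repress the activators, showed no call. Cry1 gave 5.07, 5.25, 5.07 and 5.58 in the controls and 6.60, 5.03, 5.29 and 6.31 in the exposed thyroids (probe at chr10:84594731-84594790). This probe exceeded background clearly on all 4 exposed arrays but on 1 of the controls only, whereas the remaining 12 probes did so on every array. S539 and S590 were above the control range, and S588 and S589 were not. The log2 difference was 0.57 (SE 0.37, interval −0.28 to 1.41, limma adjusted p = 0.559), and it was 1.00 with the groups apart under 75th percentile scaling (adjusted p = 0.176).

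Cry2 was read by probes for its mRNA at chr2:92243807-92243866 (leading) and for the transcript NM_001113333 at chr2:92251417-92251476. The leading probe gave 12.98, 12.64, 12.73 and 12.86 in the controls and 13.64, 12.59, 12.88 and 13.04 in the exposed thyroids. S539 stood above the other arrays on both probes, and the rest of the exposed arrays lay in or close to the control range. The log2 difference was 0.24 (SE 0.23, interval −0.30 to 0.77, limma adjusted p = 0.697) on the leading and 0.30 (SE 0.27, adjusted p = 0.672) on the other probe. The changes of Cry1 and Cry2 differed by 0.33 within arrays (exact permutation p = 0.229).

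Nr1d1 gave 10.72, 11.47, 11.25 and 11.29 in the controls and 11.36, 10.91, 10.85 and 10.05 in the exposed thyroids (the array files place its probe within chr11:98630526-98631028, a span of 503 bases). S539, S588 and S589 lay in the control range and S590 below all other arrays. Exposed minus control gave −0.39 on the log2 scale (SE 0.30, interval −1.08 to 0.30, limma adjusted p = 0.620, exact permutation p = 0.343).

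Dbp, the D-box activator and a direct target of BMAL1 and CLOCK, was read by probes at chr7:52965322-52965381 (leading) and chr7:52965461-52965520. The leading probe gave 15.21, 14.00, 14.08 and 14.61 in the controls and 15.81, 14.82, 15.05 and 14.92 in the exposed thyroids. Every exposed array lay above controls 2, 3 and 4, and control 1 lay above all exposed arrays but S539. The log2 difference was 0.68 (SE 0.33, interval −0.10 to 1.45, limma adjusted p = 0.461) on the leading and 0.65 (SE 0.34, adjusted p = 0.486) on the other probe. Without control 1 both probes had the groups apart, with a difference of 0.92 on the leading probe, and the adjusted p was then 0.204.

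Control 1 stood apart from the other controls over the set. Its signal was the nearest of the 4 controls to the exposed mean for 9 of the 10 genes, against 25.6% of the 19965 genes with a RefSeq mRNA probe. Control 4 was nearest for the remaining gene, and controls 2 and 3 for none. Without control 1 the groups were apart on 6 of the 13 probes (both of Dbp, and Per1, Per2, Arntl and Clock), where all 8 arrays gave 2. With this array left out the groups were apart on 19.3% of all probes, against 9.11% with all 8. Per1 and Per2 were again the probes called. Among the exposed thyroids S588 was nearest to the control mean for 4 genes, S589 for 5, S539 for 1 and S590 for none.

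**Figure D3:**
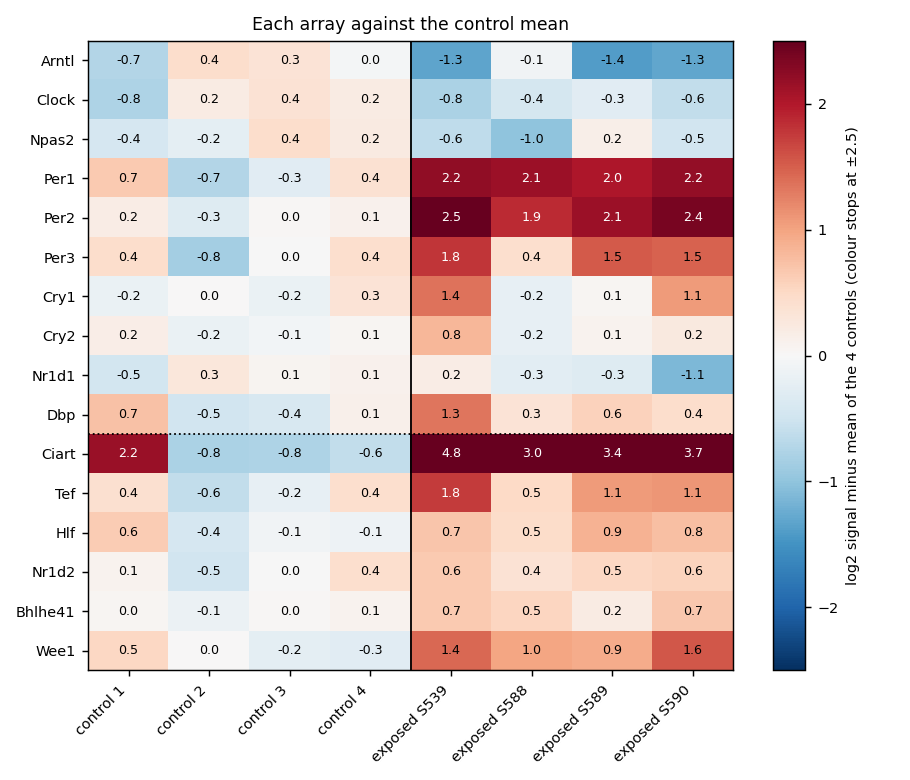
Log2 signal of each array minus the mean of the 4 controls (colour, with the value to 1 decimal in each cell) for the 10 clock genes and, under the dotted line, 6 other genes of the clock. In the Per1 and Per2 rows every exposed array is well above every control, and in the control 1 column Arntl, Clock, Per1, Dbp and Ciart deviate in the direction of the exposed arrays.

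Other cell types were followed by their markers, since the dissected tissue can hold more than thyrocytes. Of 13 thyrocyte genes 12 were well above background on every array, and Tg, the precursor of thyroid hormone, had high signal throughout. The mean centred log2 signal of these genes was 0.048 to 0.78 in controls and −0.49 to −0.27 in exposed thyroids, with 11 of 13 genes lower in exposed thyroids (10 under 75th percentile scaling). Of these 2 were called lower, Slc5a5 (log2 difference −3.53) and Dio1 (−2.46), against 1.22% of leading probes called in either direction. In the deposited values 3 were called lower. With Duoxa2 (−1.05), 3 had the groups apart, against 11.9% of leading probes over all genes. The median of the 13 genes was −0.47, and Tg differed by 0.04, Nkx2-1 by −0.09 and Iyd by −0.11. The 8 thymocyte genes, of which none was called, scored 3.30 in control 1 and 2.26 in control 2, but −1.24 in control 3, −1.41 in control 4 and between −1.19 and −0.04 in exposed thyroids. Of these 2 controls, control 1 was the nearest control to the exposed mean for 9 of the 10 clock genes and control 2 for none. Control 1 also had the lowest score of the controls for the thyrocyte genes (0.048) and the C-cell genes (−1.04). The part of thymocytes, thyrocytes or C cells in the clock values was not tested. None of the genes marking parathyroid, C cells, skeletal muscle, adipocytes, macrophages or B cells was called, but some lists leaned one way. All 7 skeletal muscle genes had lower mean signal in exposed thyroids (6 under 75th percentile scaling), with a median log2 fold change of −1.08 and scores of −0.24 to 1.17 in controls and −1.49 to 0.65 in exposed thyroids. Of 6 macrophage genes 5 were lower, with the groups apart for Adgre1 and Csf1r (scores −0.18 to 0.27 and −0.46 to 0.11). Over the leading probes of all genes 46.1% were higher, and 11.9% had the groups apart in either direction. All 4 C-cell genes were higher, with a median of 0.58 (scores −1.04 to 0.29 and −0.27 to 0.68). Of 6 adipocyte genes 5 were higher, with a median of 0.46 (scores −0.54 to −0.04 and −0.57 to 0.96). Of 5 B-cell genes 4 were lower (3 under 75th percentile scaling), with a median of −0.42 (scores 0.10 to 0.28 and −0.70 to 0.30). Only 1 of these 5 was well above background on every array. Of 4 parathyroid genes 3 were higher, with a median of 0.12. The part of these cell types in the clock values was not tested either. Between 60.5% and 75% of the spots of a control array, and between 70.9% and 77.3% of those of an exposed array, were well above background, and no spot was saturated. The 75% is that of control 1, with 60.5% to 67.9% on the other controls, and its 75th percentile of signal (701) also lay nearer to those of the exposed arrays (712 to 891) than to those of the other controls (1144 to 1230). All arrays lay on 1 slide and were read in 1 scan, exposed thyroids in the first positions, and an effect of position cannot be told apart from one of the exposure.

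The remaining genes of the clock were taken from a list of 26 genes. By their leading probes 19 were higher and 7 lower in exposed thyroids (20 and 6 under 75th percentile scaling), the median log2 fold change was 0.19, and none passed limma's threshold. At an unadjusted p under 0.05 there were 7. Over the leading probes of all genes, 46.1% were higher and 14.9% had an unadjusted p under 0.05. The groups were apart for 5 genes, among them Ciart, Wee1, Tef and Bhlhe41, all of them higher in exposed thyroids, against 11.9% of leading probes over all genes.

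Ciart (named Gm129 on the array), a repressor that binds the BMAL1 and CLOCK pair, had the largest difference of the list. Its log2 signal was 5.87, 2.92, 2.93 and 3.08 in the controls and 8.46, 6.74, 7.10 and 7.42 in the exposed thyroids. Control 1 stood far above the other controls, and it was the only control array on which the probe was well above background. The log2 difference was 3.73 (SE 0.72, limma adjusted p = 0.0779), and its size depended on the background treatment, since it was 1.36 in the deposited values. The adjusted p was 0.0134 without control 1, when no remaining control was well above background, and 0.140 to 0.224 without any one of the other arrays.

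Of the D-box family, Tef, a close relative of Dbp, gave 15.25, 14.24, 14.65 and 15.28 in the controls and 16.61, 15.35, 15.91 and 15.96 in the exposed thyroids. The groups were apart by 0.0659, and the log2 difference was 1.10 (SE 0.33, limma adjusted p = 0.242). For Hlf, its other relative, the difference was 0.70 (adjusted p = 0.302), and for Nfil3, the repressor at the same element, 0.38 (adjusted p = 0.685). Nr1d2, the paralog of Nr1d1, differed by 0.52 (adjusted p = 0.366), where Nr1d1 itself differed by −0.39.

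Among the repressors at the E-box, Bhlhe41 differed by 0.52 (limma adjusted p = 0.219) and its paralog Bhlhe40 by −0.27 (adjusted p = 0.627). Wee1, a kinase that delays mitosis and an output of the clock, differed by 1.23 (adjusted p = 0.0799). Its adjusted p was 0.0155 in the deposited values, 0.126 under the methods' t-test, 0.0431 without control 1 and 0.137 to 0.222 without any one of the other arrays. Arntl2, the paralog of Arntl, has 3 probes, of which both RefSeq mRNA probes were not well above background on any control array. The remaining probe, designed on an Ensembl transcript, was well above background on every array and differed by 0.26 (adjusted p = 0.499).

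Lists of glucocorticoid-responsive and immediate-early genes were read beside the clock because Per1 and Per2 respond to both kinds of signal. All 10 glucocorticoid-responsive genes had higher mean signal in exposed thyroids (median log2 fold change 0.81), of which 1 passed limma's threshold and 5 had the groups apart. Over the leading probes of all genes, 46.1% were higher, 1.22% passed the threshold and 11.9% had the groups apart. This was Ddit4, an inhibitor of mTOR signalling that is also a p53 target, with 13.06, 12.95, 12.91 and 12.79 in the controls and 15.18, 15.12, 15.49 and 15.28 in the exposed thyroids. Its log2 difference was 2.34 (SE 0.14, adjusted p = 0.0013). The other 4 with the groups apart were Fkbp5 (1.31), Tsc22d3 (1.33), Zbtb16 (1.81) and Klf9 (0.55), with adjusted p-values of 0.367, 0.0695, 0.116 and 0.115. The count of glucocorticoid-responsive genes called depended on the processing, being 3 with normexp background correction and 4 in the deposited values. Over the whole array the probes called rose from 435 to 856 and 955 in these settings. Of the 9 immediate-early genes 7 were higher (8 under 75th percentile scaling) and none was called. The groups were apart for 2 of them, Egr1 (1.42, adjusted p = 0.218) and Sik1 (1.08, adjusted p = 0.0702), against the same 11.9% over all genes. Of the immediate-early list 1 gene was called with normexp, 1 in the deposited values and 1 without control 1.

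The genes with log2 profiles over the 8 arrays most like those of the called clock genes were sought among all genes with a RefSeq mRNA probe, each profile centred on its mean. For Per1 they were Gria3, Per2 and Anxa8, with root mean square differences of 0.227, 0.311 and 0.329 on the log2 scale. For Per2 they were Mdm2, Bax and Fas, with 0.159, 0.190 and 0.191. Since the likeness was taken over both groups, genes of like fold change were bound to be found.

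**Figure D4:**
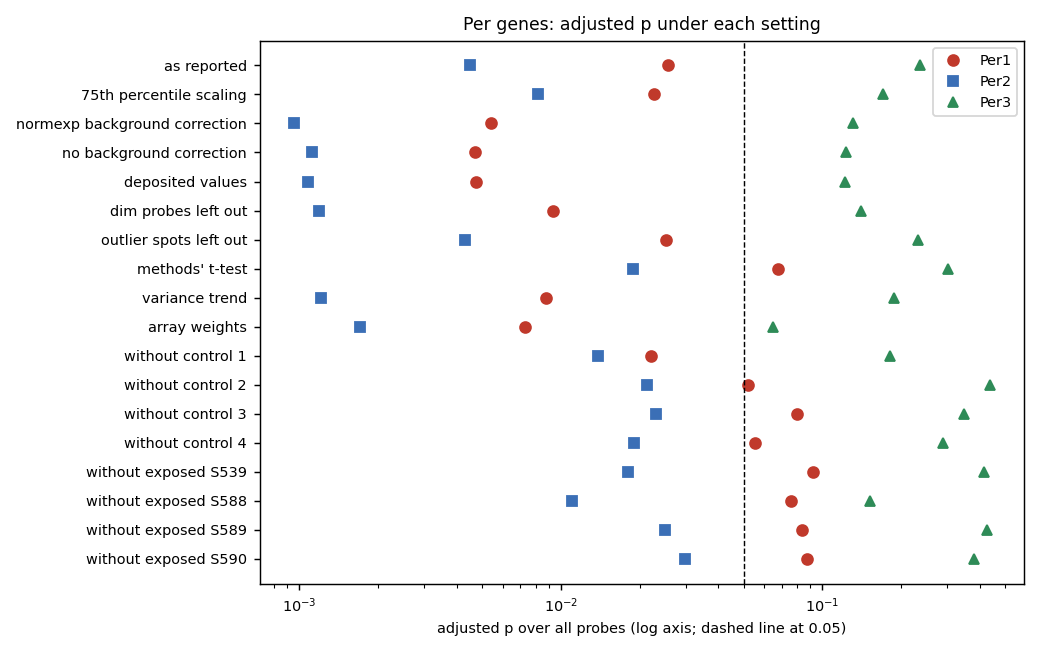
Adjusted p over all probes (horizontal log axis) of Per1, Per2 and Per3 as reported and under 17 alternatives, with a dashed line at 0.05. Per2 lies left of the line throughout, Per3 right of it throughout, and Per1 crosses it under the methods' t-test and when any array but control 1 is left out.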

How the data were processed

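Thyroid RNA of 4 control and 4 exposed mice was hybridised to 8 one-colour Agilent arrays. The authors deposited the scanner output of Feature Extraction 10.7.3.1, which holds the intensity of each spot with flags (background, outlier, saturation), and a table of log2 values that they had quantile-normalized in limma (version not given). Here the background-subtracted intensity was put on the log2 scale and quantile-normalized over 59305 spots without controls, and spots of a probe were averaged (55681 probes). Groups were compared with limma 3.58.1 in R 4.3.3 (lmFit and eBayes without covariates). P-values were adjusted over all probes by Benjamini-Hochberg, at a threshold of 0.05. Exact permutation tests, two-sided, enumerated 70 assignments of arrays. The limma fit and the rule for groups apart were run on simulated data, and the permutation tests were not. The number of arrays limits the precision.

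All probes of the members are given. Other clock, glucocorticoid and immediate-early genes are named where called or where the groups are apart, together with the paralogs and partners of members, except for 1 gene of the list that is not reported here. The members and lists were chosen with earlier results of these data known, so no count over a list is independent evidence. Of 38 RefSeq mRNA probes for clock genes 37 matched a RefSeq table (assembly GRCm38.p6) that served for names and promoters only. Exon and UTR positions of the probes in mm9 were not analysed here. Alternatives of the signal were 75th percentile scaling, the deposited values, normexp (offset 50), uncorrected signals, and removal of dim probes or of outlier spots. Those of the test were array weights, a variance trend, an ordinary t-test for each probe, and omission of each array. The paper names limma normalization and a B-test for its arrays, and Student's t-test for dual comparisons in general. The within-array probe pairs were added after seeing the data.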

Additional observations from a re-analysis of the deposited data

Results flagged for a closer look

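In groups of 4 arrays, a sample was singled out where its gap to the nearest other array, as a share of the group's range, exceeded Dixon's 95% critical value. This was the case in 6 of the 78 groups examined (each clock gene probe and each other clock gene, in both groups), where chance gives about 3.9. Among the clock genes, Arntl in S588 had a log2 signal of 10.09, with the other exposed arrays at 8.78 to 8.88. Clock in control 1 had 9.19, with the other controls at 10.16 to 10.33. The second Cry2 probe in S539 had 11.17, with the other exposed arrays at 10.08 to 10.15.

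Among the other genes of the clock, Bhlhe40 in S539 had 11.52 (others 11.04 to 11.06), Ciart (Gm129) in control 1 had 5.87 (others 2.92 to 3.08) and Alas1 in control 1 had 14.86 (others 15.61 to 15.69). Control 1 was the array in 3 of the 6. Why these arrays stood apart was not tested.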

How the results depend on the processing

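Per2 kept its call and direction under all 17 alternatives, and Arntl, Clock, Npas2, Per3, Cry1, Cry2, Nr1d1 and Dbp kept their direction and stayed outside the threshold in theirs. Per1 was no longer called under an ordinary t-test for each probe (adjusted p = 0.0678). Nor was it called in limma without any array other than control 1 (adjusted p up to 0.0923, without S539). Its clone probe had the opposite direction (−0.87). The count of clock probes called, 2 as reported, was 1 under an ordinary t-test and 1 to 2 with an array left out. The count of clock probes with the groups apart was also 2 as reported, where 9.11% of all probes were apart. It was 4 under 75th percentile scaling, where 9.97% were apart. With no background correction and in the deposited values it was 3 (Npas2 added), where 12.8% were apart. With an array left out it was 2 to 6, with 6 without control 1, 4 without S588 and 3 without S589. There 19.3%, 12.6% and 12% of all probes were apart. Of the 26 other clock genes, none called as reported, 1 was called with normexp, with no background correction and in the deposited values, 2 with dim probes left out, a variance trend or array weights, and 0 to 2 with an array left out, with 2 without control 1. The 435 probes called over the whole array became 856 with normexp, 962 with no background correction and 955 in the deposited values. The count was 733 with dim probes left out, 289 under an ordinary t-test, 744 with a variance trend and 959 with array weights. It was 100 to 481 with an array left out. Of the called probes 75.2% were higher as reported, 84.7% under 75th percentile scaling and 67.5% in the deposited values. The cause of these changes was not tested. Signals near background limit Cry1 and Ciart. No paired analysis was possible because the replicate names of the groups are not shared.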
